A study of Mus musculus with 14 samples.

Results

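The genes described here encode proteins known to be deacetylated by Sirt1. The 10 members were taken by name: Trp53, Foxo1, Foxo3, Rela, Ppargc1a, Xrcc6, Ep300, Hif1a, Stat3 and Myc. Of these genes, 9 were matched to 11 of the 23232 probes on the array, with 3 probes for Foxo3 and 1 for each of the others. Trp53 was not analysed here. All 11 probes entered the test, which covered 23230 probes, and none was lost to the filter on missing values. The measurements came from 14 two-colour arrays on RNA of modified MIN6 cells, an insulin-secreting line from a mouse beta-cell tumour, taken from passage 24 and cultured in 5 mM glucose for 4 days. Sir2OE1 (3 arrays) and Sir2OE2 (4 arrays) received a retrovirus with the mouse Sirt1 gene, were kept under 280 micrograms per ml of the drug G418, and were each compared with pooled RNA of the control lines Neo1 and Neo2. Sir2KD1 (3 arrays) and Sir2KD2 (4 arrays) carried vectors for a pair of different small interfering RNAs against Sirt1, were kept under 400 micrograms per ml of G418, and were each compared with the control line mU6pro. Each is a stable drug-selected line, so each kind of perturbation was represented by 2 lines, and the knockdown by 1 control line. Nothing in the labels says that the slides of a line came from separate cultures, so p-values cover only array-to-array spread, which may be technical in origin. The files hold ratios and no levels, so beta-cell markers could not be used to check the cell type.

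Sirt1 is an NAD-dependent enzyme that removes acetyl groups from lysines of histones and of many transcription regulators. For the members this is a change of the protein after it is made: deacetylation alters the activity, location or stability of p53 (Trp53), the forkhead factors Foxo1 and Foxo3, the p65 subunit of NF-kappaB (Rela) and the coactivator PGC-1alpha (Ppargc1a). In beta cells Foxo1 links insulin signalling to stress resistance and to the identity of the cell. The arrays measured RNA, so they report on the transcripts of these substrates and not on their acetylation.

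The promoter windows of the 3 members on which most of the results turn are shown because they differ in the elements they hold: Foxo1, the only member that passed the test in a line, and Stat3 and Ppargc1a, the members with the largest differences between overexpressing and knockdown lines if the ratio runs the same way in both kinds. They are RefSeq sequences of build GRCm38.p6, 5′ to 3′ on the gene's strand, from 250 bases before to 50 bases after the gene's start. Capitals mark a match on either strand to any of the 6 motifs searched, which were the FoxO motif GTAAACA, the E-box CACGTG, the hypoxia response core ACGTG (which overlaps the E-box), the STAT site TTCNNNGAA, the cAMP response element TGACGTCA and the GC box GGGCGG.
Foxo1 (chr3:52268087-52268386, plus strand): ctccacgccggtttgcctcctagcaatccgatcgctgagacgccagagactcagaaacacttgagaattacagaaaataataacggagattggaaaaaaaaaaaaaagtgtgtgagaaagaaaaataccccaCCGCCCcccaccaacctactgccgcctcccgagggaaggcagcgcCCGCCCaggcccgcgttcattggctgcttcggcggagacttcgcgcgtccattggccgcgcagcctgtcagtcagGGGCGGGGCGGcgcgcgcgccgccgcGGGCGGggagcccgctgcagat
Stat3 (chr11:100939491-100939790, minus strand): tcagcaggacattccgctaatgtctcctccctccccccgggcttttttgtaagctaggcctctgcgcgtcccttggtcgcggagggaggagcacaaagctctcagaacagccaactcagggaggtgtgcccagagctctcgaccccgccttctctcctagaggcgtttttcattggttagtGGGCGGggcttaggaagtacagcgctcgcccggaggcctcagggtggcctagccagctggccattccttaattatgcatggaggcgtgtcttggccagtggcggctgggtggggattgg
Ppargc1a (chr5:51567676-51567975, minus strand): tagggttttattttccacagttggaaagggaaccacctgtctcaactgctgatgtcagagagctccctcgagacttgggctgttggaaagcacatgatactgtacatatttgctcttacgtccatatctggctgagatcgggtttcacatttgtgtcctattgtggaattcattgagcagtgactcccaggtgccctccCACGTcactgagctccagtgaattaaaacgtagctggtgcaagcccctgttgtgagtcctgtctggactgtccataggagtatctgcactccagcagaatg
The Foxo1 window held 5 GC boxes, the Stat3 window 1 GC box, and the Ppargc1a window a single hypoxia response core and no GC box. Windows were matched for 9 members, Trp53 included, and GC boxes were found in 6 of them, against 35.7% of 32851 promoters. Foxo3 also had 5 GC boxes, Xrcc6 had 3, Rela 2 and Ep300 1. The E-box was found in 2 of the 9 windows (Trp53 and Hif1a), against 7.15% of all promoters, and the hypoxia response core in 3 (Ppargc1a, Trp53 and Hif1a), against 19.6%. The FoxO motif, the STAT site and the cAMP response element were in 0 of the 9 windows, against 3.65%, 8.30% and 1.79% of all promoters, which says only that these letters are not in these windows. The GC content of the windows ran from 48.7% in Ppargc1a to 75% in Foxo3, against a median of 52.7% over all promoters. The 6 windows with a GC box ran from 60.7% (Stat3) to 75%, while that of Hif1a (69.3%) held none. The share over all promoters was not matched for GC content, so the count of 6 shows no enrichment of the element.

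Values are log2 ratios of the 2 channels, with the sign turned on arrays whose line was in channel 1. Whether the plus side means more RNA in the modified line or in its control is not settled, and the turn itself is an assumption, so plus and minus name sides only. Each line's value was tested against 0 (limma, Benjamini-Hochberg adjustment over all probes, threshold 0.05), which leaves out the spread of the control RNA. In bulk RNA, fewer cells of a type and less RNA per cell cannot be told apart. The Sirt1 probe, which should check the labels, read -0.08, 0.21 and 0.13 in Sir2OE1, and -0.20, -0.36, -0.28 and -0.49 in Sir2OE2. It read -0.12, -0.21 and 0.03 in Sir2KD1, and 0.22, 0.10, 0.10 and 0.07 in Sir2KD2. The lines of a kind did not share a side, and no line passed the test (lowest adjusted p = 0.131, in Sir2OE2). Whether this probe reads the retroviral copy is unknown here.

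The transcripts of Sirt1 substrates rarely passed the test against 0, and the typical size of their ratios was not far from that of all probes. Of 44 tests of 11 probes in 4 lines, 1 passed: Foxo1 in Sir2KD1. Per line, 0 of 11 probes were called in Sir2OE1, 0 in Sir2OE2, 1 in Sir2KD1 and 0 in Sir2KD2, where the calls over all probes made up 1.06%, 2.81%, 3.59% and 1.34% in the same order of lines. The call was on the minus side, where 1.98% of all probes were called in Sir2KD1. Thus 1 of 11 member probes was called in at least 1 line, against 6.4% of all probes tested (1486 of 23230), a share that a single probe cannot be set apart from. At an unadjusted p under 0.05 the counts were 0, 1, 3 and 1 of 11, against 9.61%, 13.2%, 16.8% and 13.4% of all probes. The median size of the member ratios, regardless of side, was 0.20 in Sir2OE1, 0.12 in Sir2OE2, 0.19 in Sir2KD1 and 0.13 in Sir2KD2, against 0.18, 0.17, 0.23 and 0.18 over all probes.

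How far the transcripts could have differed without a call is shown by the confidence intervals. In 38 of the 44 tests the 95% interval stayed within 1 on the log2 scale, that is within a 2-fold difference either way, compared with 74.4% of all tests of probes in lines. In 21 of 44 it stayed within a 1.5-fold difference, compared with 38.9%. For 8 of the 11 probes all 4 lines stayed within the 2-fold bound, compared with 56.7% of all probes, the exceptions being Ppargc1a and a pair of the Foxo3 probes. A miss of the threshold does not show that a transcript was equal in line and control.

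**Figure D1:**
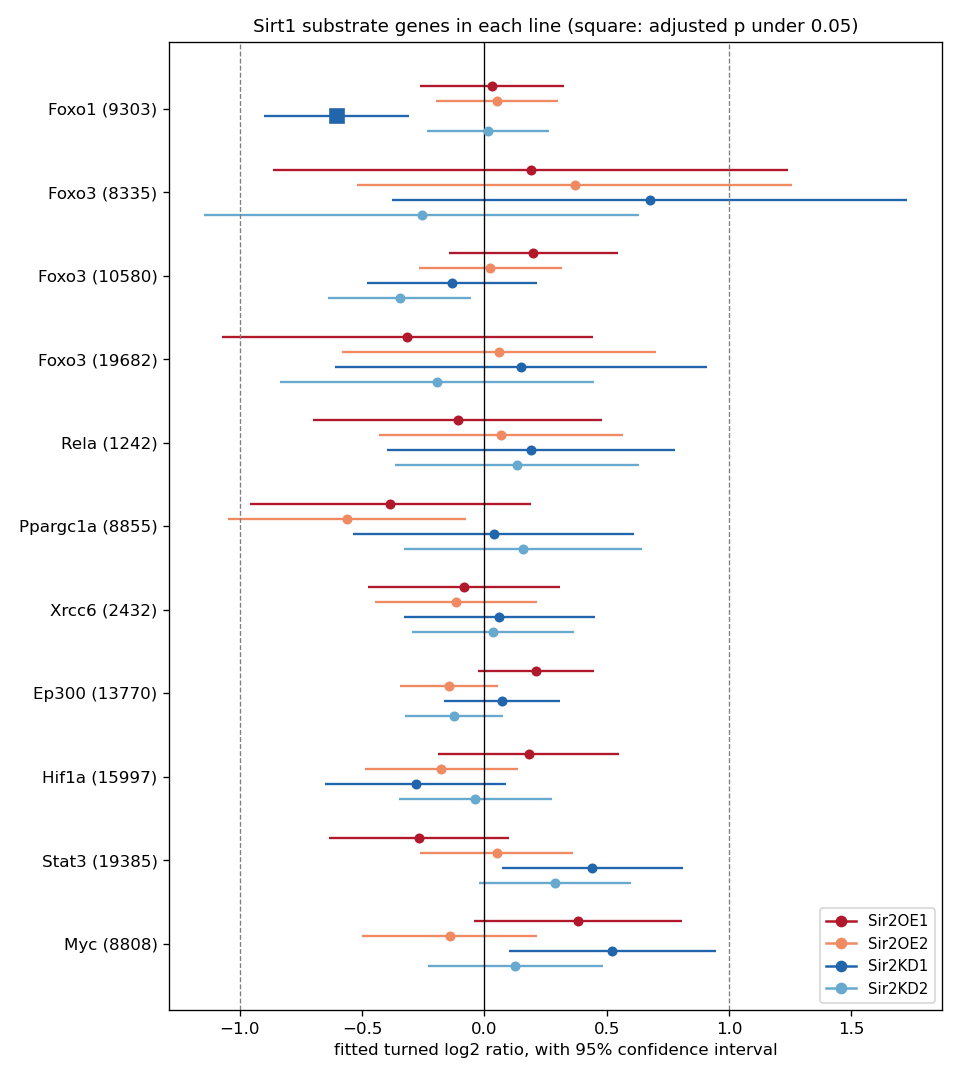
Fitted log2 ratio of each member probe (gene, array probe number) in the 4 lines, with its 95% confidence interval on the horizontal axis; dashed lines stand at a 2-fold difference either way and the square marks the call. Only Foxo1 in Sir2KD1 is marked, and 38 of the 44 intervals lie between the dashed lines.

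Among the forkhead transcription factors, which turn on stress-resistance and starvation genes when insulin signalling is low, Foxo1 passed the test in 1 of 4 lines. Its ratios on the 3 Sir2KD1 arrays were -0.51, -0.41 and -0.87. On the Sir2KD2 arrays they were -0.13, -0.03, 0.09 and 0.12. All arrays of Sir2KD1 were on the minus side and below every array of Sir2KD2, which lay on both sides of 0. In the overexpressing lines the ratios were 0.05, -0.11 and 0.13 for Sir2OE1, and 0.19, -0.04, 0.18 and -0.12 for Sir2OE2, so these arrays also lay on both sides. The fitted value in Sir2KD1 was -0.60 ± 0.13 (SE, n = 3 arrays; 95% interval -0.90 to -0.31), a 1.52-fold difference from mU6pro RNA, with limma adjusted p = 0.0342. The fitted values in the other lines were 0.03 in Sir2OE1, 0.05 in Sir2OE2 and 0.01 in Sir2KD2, with adjusted p from 0.933 to 0.985. The call was close to the threshold: it was lost in 10 of 14 fits that each left out 1 array, with values between -0.73 and -0.46 and adjusted p up to 0.154, the last without slide 3 of Sir2KD1. It was also lost when arrays were scaled to a common spread (-0.53, adjusted p = 0.0866). The ratio moved to the plus side with no turn by channel and no dye term (0.26), where the call was lost too. In size the ratio was not extreme, since 15% of all probes had a larger one in Sir2KD1. The difference between the knockdown lines, Sir2KD1 minus Sir2KD2, was -0.62 ± 0.17 (95% interval -1.0 to -0.23), with limma adjusted p = 0.173, so the call in 1 line was not shown to set it apart from the other.

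Foxo3, the second forkhead member, had 3 probes that did not give the same picture. Array probe 8335 was among the noisiest on the array, with a residual SD of 0.804 that 91.1% of probes stayed below. Its ratios on the Sir2KD1 arrays were -0.35, 0.32 and 2.00, and on the Sir2KD2 arrays -0.14, 0.80, -0.85 and -0.83, so arrays of 1 line covered more than the differences between lines. Probe 19682 had a residual SD of 0.580 and ratios from -0.99 to 0.98 within Sir2KD1 alone. Probe 10580 was quieter (residual SD 0.264), and its ratios were on the minus side on all 7 knockdown arrays. They were -0.28, -0.11 and -0.00 in Sir2KD1, and -0.35, -0.20, -0.66 and -0.18 in Sir2KD2, while both sides occurred in Sir2OE2 and all 3 arrays of Sir2OE1 were plus (0.15, 0.14 and 0.30). All 7 knockdown arrays were on one side for 9.32% of all probes. Its largest fitted value was -0.35 ± 0.13 in Sir2KD2 (SE, n = 4; 95% interval -0.64 to -0.05), with limma adjusted p = 0.279. None of the 12 Foxo3 tests passed.

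**Figure D2:**
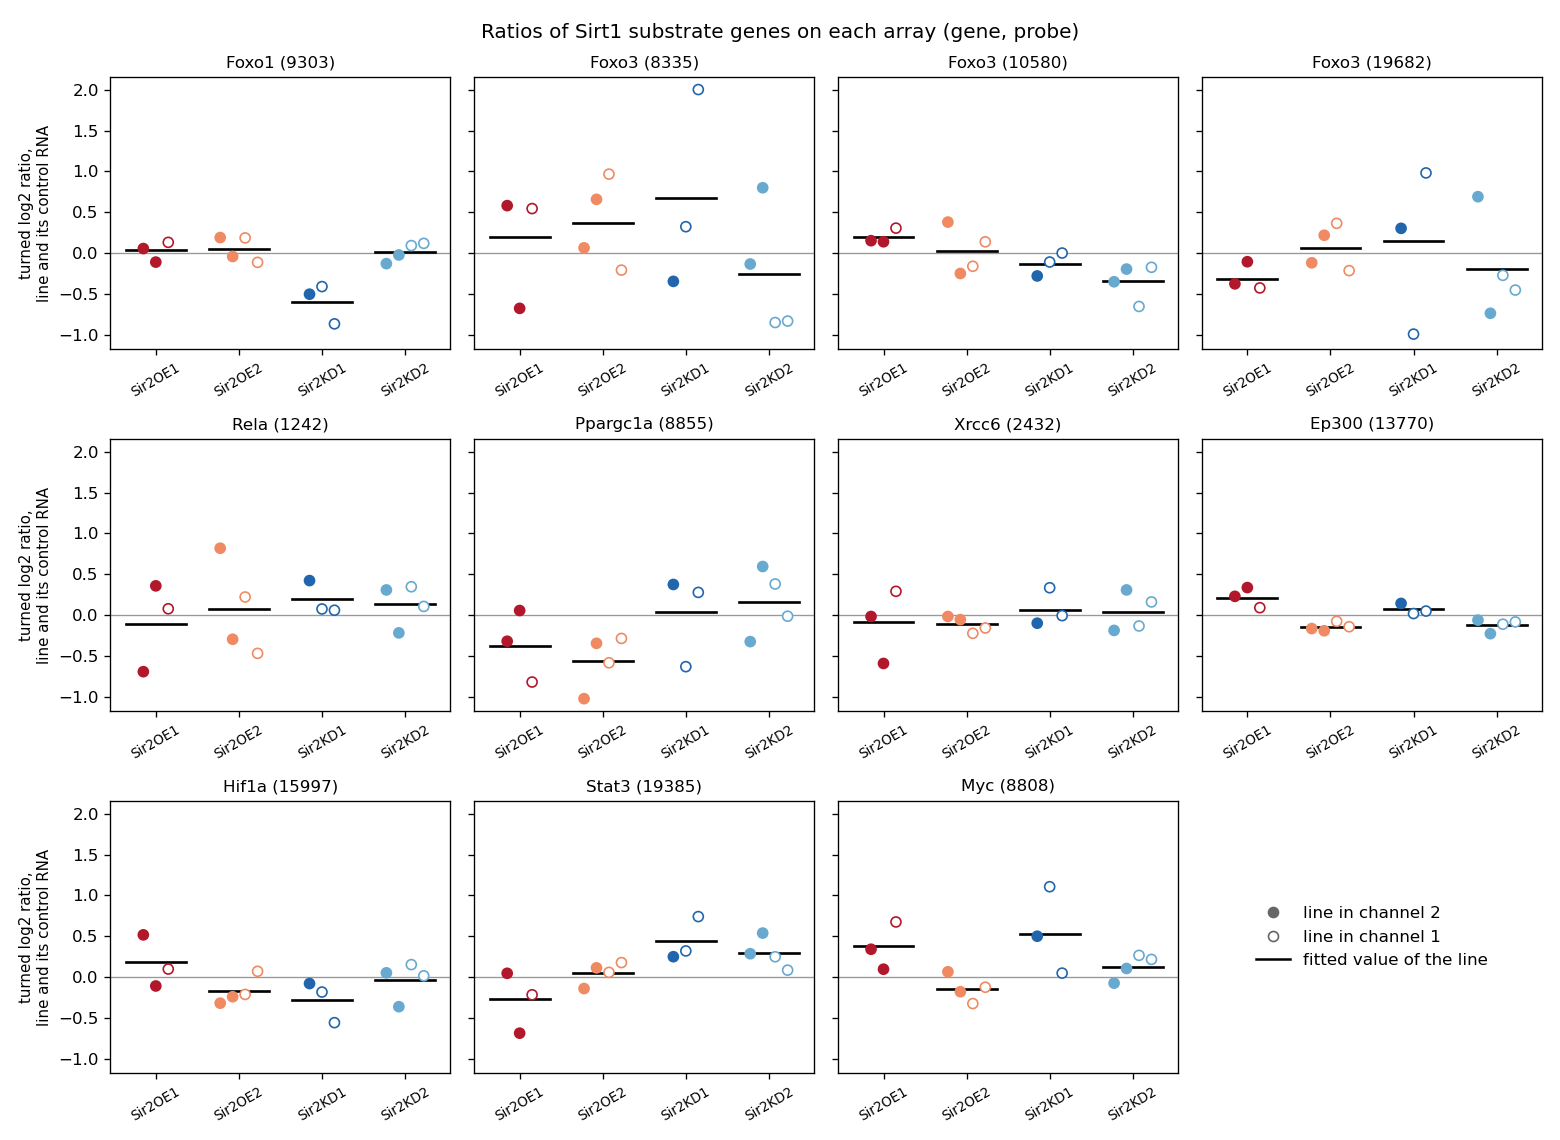
Turned log2 ratio of each member probe on every array, by line (filled points: line in channel 2; open points: line in channel 1; bars: fitted value of the line). The 3 Foxo1 arrays of Sir2KD1 lie between -0.87 and -0.41, apart from the other lines, while Foxo3 probe 8335 spreads from -0.35 to 2.00 within Sir2KD1.

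Stat3 and Rela carry signals of cytokines to the nucleus. Stat3 is phosphorylated by Janus kinases downstream of receptors that use gp130, and Rela (p65) is released from its IkappaB inhibitors. The ratios of Stat3 in Sir2OE1 were 0.04, -0.69 and -0.22, and those in Sir2OE2 were -0.14, 0.11, 0.06 and 0.18. In Sir2KD1 they were 0.25, 0.32 and 0.74, and in Sir2KD2 0.28, 0.54, 0.25 and 0.08. All 7 knockdown arrays were on the plus side, which 9.32% of all probes also showed on one side or the other, while the 7 overexpression arrays were on both. The fitted value was 0.44 ± 0.17 in Sir2KD1 (SE, n = 3; 95% interval 0.07 to 0.81; limma adjusted p = 0.205) and 0.29 ± 0.14 in Sir2KD2 (SE, n = 4; limma adjusted p = 0.417), so neither line passed. Rela varied widely among arrays of the same line, from -0.70 to 0.36 in Sir2OE1 and from -0.47 to 0.82 in Sir2OE2. Its fitted values lay between -0.11 in Sir2OE1 and 0.19 in Sir2KD1, all with adjusted p of 0.805 or more.

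Ppargc1a encodes PGC-1alpha, the coactivator that drives mitochondrial and gluconeogenic genes. Its ratios were -0.32, 0.05 and -0.82 in Sir2OE1, and -1.03, -0.35, -0.59 and -0.29 in Sir2OE2. In the knockdown lines they were 0.37, -0.63 and 0.28 for Sir2KD1, and -0.33, 0.59, 0.38 and -0.02 for Sir2KD2. Of the overexpression arrays, 6 of 7 were on the minus side, and the knockdown arrays were on both sides and overlapped them. The fitted value in Sir2OE2 was -0.56 ± 0.22 (SE, n = 4; 95% interval -1.05 to -0.07), a size that 8.26% of all probes exceeded, with limma adjusted p = 0.301. In Sir2OE1 it was -0.38 ± 0.26 (SE, n = 3; limma adjusted p = 0.766).

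Myc drives growth and ribosome production, and Hif1a turns on glycolytic genes when oxygen is low. The ratios of Myc were 0.34, 0.09 and 0.67 in Sir2OE1, and 0.06, -0.18, -0.33 and -0.13 in Sir2OE2. In Sir2KD1 they were 0.50, 1.11 and 0.05, and in Sir2KD2 -0.08, 0.10, 0.26 and 0.22. The arrays of Sir2OE1 were all above those of Sir2OE2, while those of the knockdown lines overlapped. The fitted value was 0.52 ± 0.19 in Sir2KD1 (SE, n = 3; 95% interval 0.10 to 0.95; limma adjusted p = 0.191) and 0.38 ± 0.19 in Sir2OE1 (SE, n = 3; limma adjusted p = 0.590). Leaving out slide 3 of Sir2KD1 brought Myc past the threshold there (0.80, adjusted p = 0.0486). Hif1a had fitted values of 0.18 in Sir2OE1, -0.18 in Sir2OE2, -0.28 in Sir2KD1 and -0.04 in Sir2KD2. Its arrays overlapped between lines of a kind, and the lowest adjusted p was 0.454.

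Ep300, the histone acetyltransferase p300 that adds the acetyl groups Sirt1 takes off, was the steadiest member. Its residual SD of 0.181 was smaller than that of nearly all probes (0.301% had a smaller one), against a median of 0.374. Its ratios were 0.23, 0.34 and 0.09 in Sir2OE1, and -0.17, -0.19, -0.08 and -0.14 in Sir2OE2. In Sir2KD1 they were 0.14, 0.02 and 0.05, and in Sir2KD2 -0.06, -0.23, -0.11 and -0.09. Thus all arrays of Sir2OE1 and Sir2KD1 were on the plus side and all of Sir2OE2 and Sir2KD2 on the minus side. All arrays of the line lay on one side for 31.9% of all probes in Sir2OE1, 29.4% in Sir2OE2, 38.1% in Sir2KD1 and 26.8% in Sir2KD2. The sizes were small, with the farthest bound of any 95% interval at a 1.36-fold difference, and no line passed the test (lowest adjusted p = 0.576). Xrcc6, the Ku70 subunit that binds broken DNA ends, had fitted values between -0.12 in Sir2OE2 and 0.06 in Sir2KD1. Its arrays lay on both sides in 3 of the 4 lines, and the farthest bound of any 95% interval was a 1.39-fold difference.

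The design also sets the kinds against each other, as the mean of the overexpressing lines minus the mean of the knockdown lines. This difference assumes that the ratio runs the same way in both kinds. It also arises when only the overexpressing or only the knockdown lines moved, so opposite movement was not tested. The kinds differed in control RNA, vector and G418 dose as well, so the difference cannot be assigned to Sirt1. None of the 11 member probes passed for the overexpressing minus the knockdown lines, where 2.66% of all probes did. At an unadjusted p under 0.05 there were 4 member probes, against 14.4% of all probes: Stat3, Foxo1, Foxo3 probe 10580 and Ppargc1a. The difference for Stat3 was -0.47 ± 0.15 (95% interval -0.82 to -0.13), with limma adjusted p = 0.169, the lowest among the members. For Ppargc1a it was -0.57 ± 0.24 (95% interval -1.10 to -0.04), with limma adjusted p = 0.312. Foxo1 had a difference of 0.34 ± 0.12 (limma adjusted p = 0.228), with Sir2KD2 itself at 0.01, and Foxo3 probe 10580 one of 0.35 ± 0.14 (limma adjusted p = 0.298). The arrays of the kinds overlapped for all 11 probes, whereas they did not overlap for 2.16% of all probes. If the knockdown ratios run the other way, 0 of 11 member probes again passed, against 4.99% of all probes (1160 of 23230), and only Myc among the members had an unadjusted p under 0.05, where 17.9% of all probes did. The order of the members then changed: the difference was 0.49 for Foxo3 probe 8335, 0.45 for Myc, -0.38 for Ppargc1a, 0.26 for Stat3 and -0.25 for Foxo1, with adjusted p of 0.213 or more.

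Between lines of the same kind, 0 of 11 member probes passed, against 0.323% of all probes for Sir2OE1 minus Sir2OE2 and 0.689% for Sir2KD1 minus Sir2KD2. At an unadjusted p under 0.05 there was 1 member in each, against 7.48% and 11.8% of all probes: Ep300 between the overexpressing lines and Foxo1 between the knockdown lines. The arrays of Sir2OE1 and Sir2OE2 did not overlap for Ep300 and Myc, 2 of 11 probes, where 12.6% of all probes did not. Those of Sir2KD1 and Sir2KD2 did not overlap for Foxo1 and Ep300, also 2 of 11, where 14.8% of all probes did not. The difference for Myc was 0.53 ± 0.25 (95% interval -0.03 to 1.08), with limma adjusted p = 0.707.

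**Figure D3:**
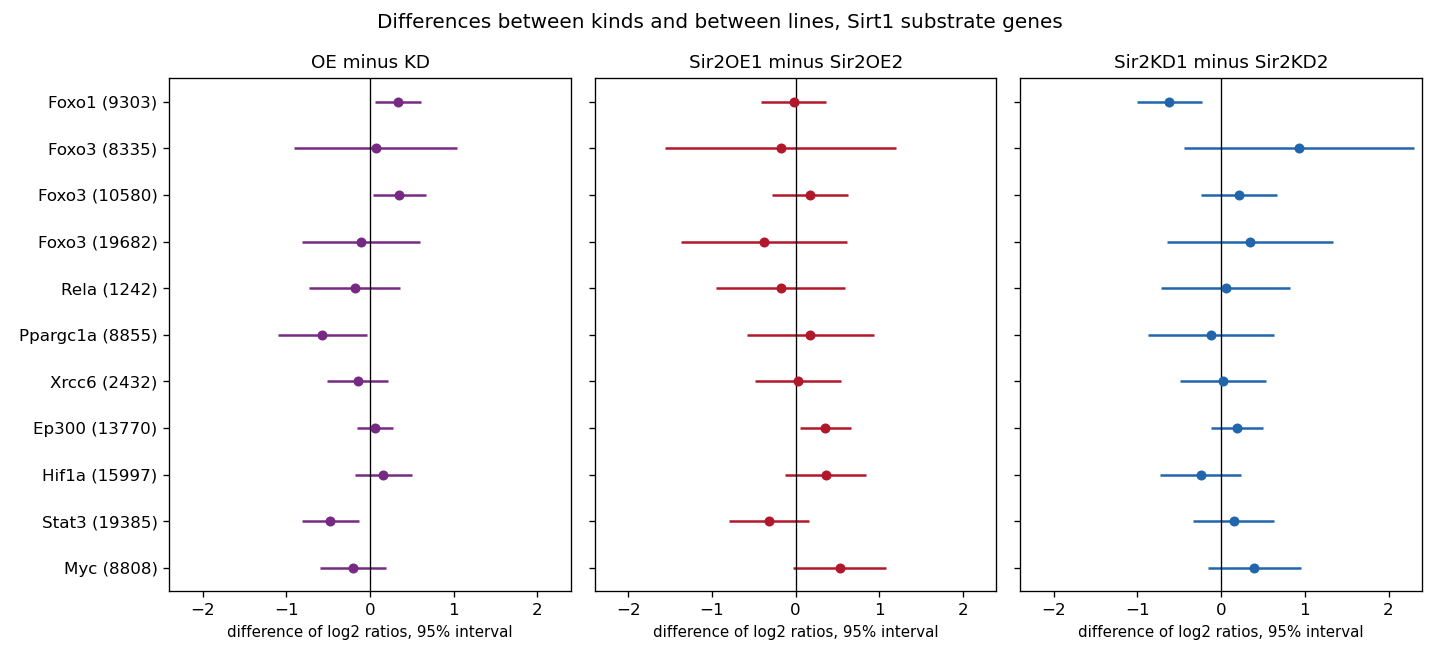
Differences of the fitted log2 ratios with 95% confidence intervals for the 11 member probes: overexpressing minus knockdown lines, Sir2OE1 minus Sir2OE2, and Sir2KD1 minus Sir2KD2. The intervals of 4 probes leave 0 in the first panel and of 1 probe in each of the others, and none passed the adjusted test.

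Genes around the members were described from lists of further Sirt1 substrates, of proteins that bind or control Sirt1, and of regulators, partners and targets of each member, some of which stand in 2 lists. These lists were chosen with results of these data known and are no independent evidence. Of 38 further substrates, 33 were measured by 36 probes. In at least 1 line 1 probe was called, or 2.78%, against 6.4% of all probes. It was Apex1, the base-excision repair nuclease, at 0.56 ± 0.11 in Sir2KD2 (SE, n = 4; limma adjusted p = 0.0403), a call kept in 4 of 14 fits that left out an array. All 11 genes of proteins that bind or control Sirt1 were measured, by 12 probes, of which 1 was called, or 8.33% against 6.4%. It was Hic2, a paralog of the Sirt1 repressor Hic1, at -1.16 ± 0.25 in Sir2KD1 (SE, n = 3; limma adjusted p = 0.0318), a call kept in 9 of 14 such fits. The remaining 35 and 11 probes of these lists, among them many chromatin and repair enzymes, did not pass in any line.

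Of 69 regulators and partners of the members, 60 were measured by 63 probes, and 5 probes were called in at least 1 line, or 7.94% against 6.4%. In Sir2KD1 the NF-kappaB subunits Nfkb2 (0.90 ± 0.18; limma adjusted p = 0.0199) and Relb (0.57 ± 0.14; limma adjusted p = 0.0459) were both on the plus side. All 3 arrays of that line were on the plus side for both genes, from 0.75 to 1.2 for Nfkb2 and from 0.35 to 0.77 for Relb. In Sir2KD2 they read 0.34 and 0.24, with adjusted p of 0.362 and 0.403. In Sir2OE1 and Sir2OE2 Nfkb2 read -0.39 and 0.23, and Relb -0.05 and 0.17. They are partners of Rela and known NF-kappaB targets. The 8 measured Rela regulators and partners had a median of 0.27 in Sir2KD1 and 0.19 in Sir2KD2, against 0.02 and -0.00 over all probes. In Sir2OE1 and Sir2OE2 their medians were -0.01 and 0.08. These 8 include Nfkb2 and Relb, so the medians are not separate from the calls, and a shared shift was not tested. Rela itself read 0.19 in Sir2KD1. The call of Relb was kept in 1 of 14 fits that left out an array, and that of Nfkb2 in 12.

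The other called partners were on single lines, and when an array was left out the call was kept in 10 of 14 fits for Max, 9 for Xrcc4 and 12 for Cited1. Max, the dimerization partner that Myc needs to bind DNA, was at 0.82 ± 0.16 in Sir2OE2 (SE, n = 4; limma adjusted p = 0.0227), where Myc read -0.14. Xrcc4, which works with DNA ligase in end joining after Ku70 has bound, was at -0.76 ± 0.16 in Sir2OE2 (SE, n = 4; limma adjusted p = 0.0314), where Xrcc6 read -0.12. Cited1, which binds the p300 and CBP coactivators, was at -0.89 ± 0.15 in Sir2KD1 (SE, n = 3; limma adjusted p = 0.0104) and at 0.19 in Sir2KD2. It differed between these lines, with Sir2KD1 minus Sir2KD2 at -1.07 ± 0.20 (limma adjusted p = 0.0437). For the overexpressing minus the knockdown lines, 2 of 63 probes passed, against 2.66% of all probes. Both measure Il6st, which encodes gp130 upstream of Stat3 and was singled out after its values were seen. Their differences were -0.51 ± 0.10 (limma adjusted p = 0.0253) and -0.84 ± 0.17 (limma adjusted p = 0.0231), on the same side as that of Stat3, and neither probe passed in a single line. With the knockdown ratios turned, these differences were -0.00 and -0.13, neither passed, and 3 of the 63 probes were called (Jak1, Cited1 and Nfkbie, named after their values were seen), against 4.99% of all probes.

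Of 86 known targets of the members, 79 were measured by 87 probes, and 13 probes were called in at least 1 line, or 14.9% against 6.4%. Among the 87 were 4 probes at a fixed ratio that carry no information of their own. The calls did not share a side: there were 0 plus and 5 minus in Sir2OE1, 2 and 2 in Sir2OE2, 4 and 3 in Sir2KD1, and 1 and 2 in Sir2KD2. Over all probes, 1.06%, 2.81%, 3.59% and 1.34% were called on either side in the same order of lines. The medians of the 87 probes were close to those of all probes, between -0.00 and 0.06 in the 4 lines. The count of 13 rests in part on single arrays, since the number called was 7 to 10 when any 1 array was left out. The calls of Rbl2 in both knockdown lines, Ldha and Plk2 in Sir2OE2, Slc16a3 in Sir2KD2 and Ucp1 in Sir2OE1 were kept in all 14 such fits.

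Among the 5 targets called in Sir2OE1, the Hif1a targets Bnip3 and Slc16a3 had the largest ratios after Ucp1. Slc16a3, the lactate exporter, read -1.05, -0.93 and -0.88 in Sir2OE1, against -0.01, -0.28, -0.39 and -0.07 in Sir2OE2. In Sir2KD1 it read -0.24, -0.17 and -0.36, and in Sir2KD2 -0.68, -0.81, -0.75 and -0.63. It was on the minus side on all 14 arrays and was called in Sir2OE1 (-0.96 ± 0.12; limma adjusted p = 0.00405) and in Sir2KD2 (-0.72 ± 0.10; limma adjusted p = 0.00624). Bnip3, a mitophagy receptor, was called only in Sir2OE1 among the 4 lines (-1.15 ± 0.13; limma adjusted p = 0.00229). Ldha, lactate dehydrogenase A, is a target of both Hif1a and Myc. It read -0.64, -0.46 and -0.41 in Sir2OE1, and 0.98, 0.79, 0.87 and 0.67 in Sir2OE2, so the overexpressing lines were on opposite sides. Their difference, Sir2OE1 minus Sir2OE2, was -1.33 ± 0.19 (limma adjusted p = 0.0199). Ldha was also called in Sir2KD1 (0.73 ± 0.15; limma adjusted p = 0.0225) and not in Sir2KD2 (0.07). Hif1a read 0.18 in Sir2OE1. No other Hif1a target was called there, where 1.06% of all probes were. The 15 probes of Hif1a targets include those called. Their median was -0.14 in Sir2OE1, -0.03 in Sir2OE2, -0.01 in Sir2KD1 and 0.04 in Sir2KD2.

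Of the targets of Foxo1 and Foxo3, Rbl2, a pocket protein that restrains the cell cycle, was called in both knockdown lines at -2.57 ± 0.18 in Sir2KD1 (SE, n = 3; limma adjusted p = 2.86e-05) and -2.60 ± 0.15 in Sir2KD2 (SE, n = 4; limma adjusted p = 1.11e-05). Both lines were compared with the same control line, mU6pro, so these values are not independent. A difference particular to that control would enter both, and leaving out an array does not address it. Foxo1 was called in Sir2KD1 only. Gadd45a, a DNA-damage response gene, was called in Sir2OE2 (0.59 ± 0.10; limma adjusted p = 0.0115). Sod2, the mitochondrial superoxide dismutase, was called in Sir2KD1 (-0.52 ± 0.12; limma adjusted p = 0.0364), where Foxo1 was also called. It is named beyond the limit of 10 probes per list, after its values were seen, and its call was kept in 5 of 14 fits that left out an array. Of the 11 probes for Ppargc1a targets, Ucp1 alone was called in a line, where 6.4% of all probes were called in at least 1. This mitochondrial uncoupler was at -1.35 in Sir2OE1, -0.58 in Sir2OE2, 0.44 in Sir2KD1 and 0.62 in Sir2KD2, with calls in all but Sir2KD1. The call in Sir2OE1 was kept in all 14 fits that left out an array, that in Sir2OE2 in 4 and that in Sir2KD2 in 2. Ucp1 was on the same side as the fitted Ppargc1a ratio in each line, although no Ppargc1a value passed, and neither did Ucp1 in Sir2KD1. The Ppargc1a ratio in Sir2KD1 was only 0.04 ± 0.26, and ran from -0.20 to 0.32 with an array left out, so its side there is unsettled. A link between the genes was not tested.

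Trp53 itself was not analysed here, and its targets were measured by 12 probes. Of these, Plk2, Ccng1 and Sesn2 were called in at least 1 line, where 6.4% of all probes were. Plk2, a stress-induced kinase, was called in Sir2OE1 (-0.78 ± 0.15; limma adjusted p = 0.0434) and in Sir2OE2 (-0.83 ± 0.13; limma adjusted p = 0.00523). The call in Sir2OE1 was kept in 1 of 14 fits that left out an array (without slide 1 of Sir2KD2), with adjusted p up to 0.265, and that in Sir2OE2 in all 14. Both lines were compared with pooled RNA of the same control lines, so these calls are not independent. Ccng1, cyclin G1, was at 0.74 ± 0.17 in Sir2KD1 (SE, n = 3; limma adjusted p = 0.0395) and at -0.65 ± 0.14 in Sir2KD2 (SE, n = 4; limma adjusted p = 0.0588). The call in Sir2KD1 was kept in 4 of 14 such fits, with adjusted p up to 0.243. The knockdown lines differed, with Sir2KD1 minus Sir2KD2 at 1.39 ± 0.22 (limma adjusted p = 0.0214). Sesn2, a stress-induced regulator of mTORC1, was called in Sir2KD1 (-0.48 ± 0.11; limma adjusted p = 0.0435), kept in 1 of 14 such fits, and is also named after its values were seen. The median of the 12 probes lay between -0.16 and 0.20 in the 4 lines. Among targets of Stat3, Junb, an AP-1 subunit, was called in Sir2OE1 (-0.78 ± 0.16; limma adjusted p = 0.0485), a call lost whichever array was left out. Among the 11 probes for Rela targets only Nfkb2 and Relb were called, both in Sir2KD1, where 3.59% of all probes were. The median of those probes was -0.13 in Sir2OE1, 0.17 in Sir2OE2, 0.45 in Sir2KD1 and 0.03 in Sir2KD2.

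**Figure D4:**
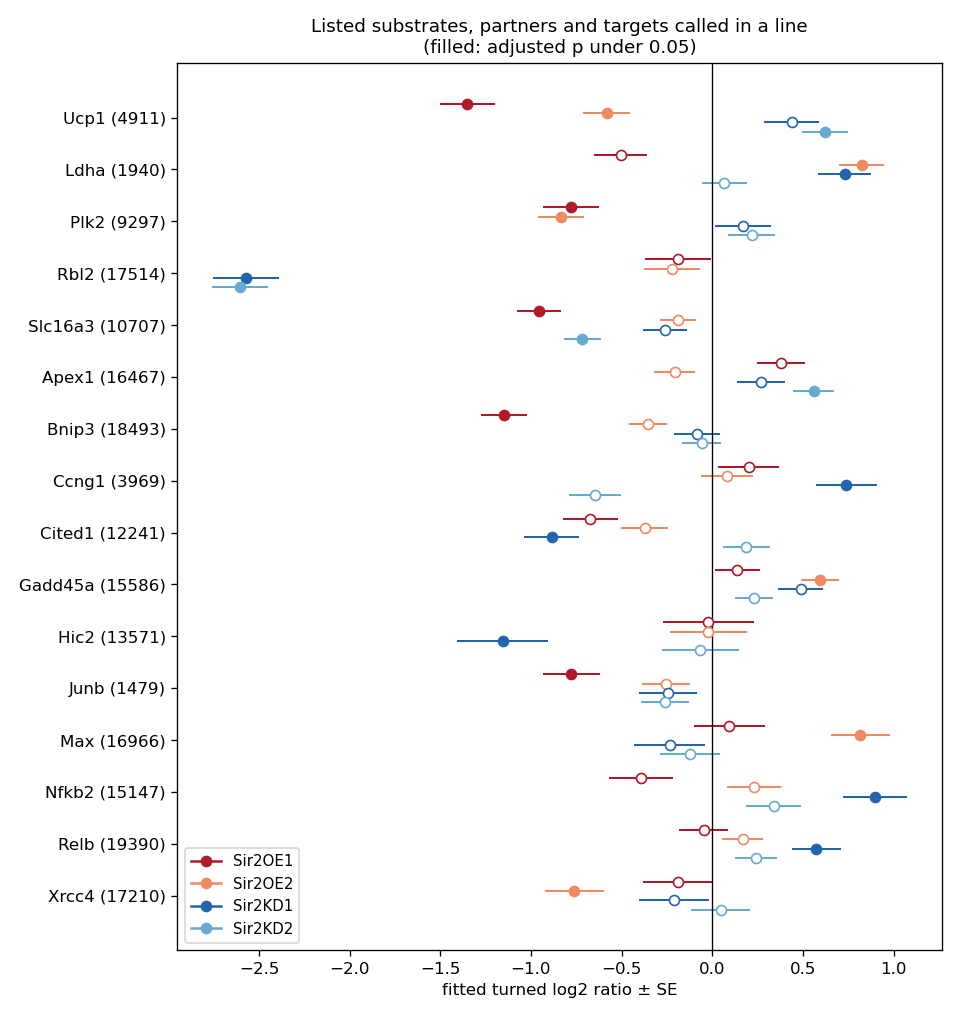
Fitted log2 ratio ± SE in the 4 lines for probes of the listed substrates, partners and targets called in at least 1 line, up to 10 from each list (gene, array probe number; filled points: adjusted p under 0.05). Rbl2 lies near -2.6 in both knockdown lines, which share a control line, and the overexpressing lines stand on opposite sides of 0 for Ldha.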

How the data were processed

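The authors deposited one log2 ratio per probe and array. In the deposited values every probe was centred within each kind of perturbation (summing to 0 over 6 of 7 arrays, largest deviation 5.6e-08). The sources used here do not give the array software, background correction, normalization, dyes or ratio direction. Channel 2 was taken as the numerator, a choice that the correlations between arrays cannot decide. The sign was turned where the line was in channel 1, since arrays of a line with opposite channels had a mean r of -0.281 over 12 pairs. Arrays of a line with the same channel had a mean r of 0.126 over 6 pairs. How far the centring contributed to these correlations was not tested. No intensities were used here, and precision is limited by how many arrays each line had. Array medians ran from -0.0347 to 0.0165.

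Of 23232 probes, 16885 had 1 symbol in the platform annotation, 143 several and 6204 none. Symbols of 16205 probes were updated through the RefSeq gene table of GRCm38.p6. The fit was limma 3.58.1 in R 4.3.3 (lmFit, eBayes) to the 14 arrays together, with 4 line coefficients and a dye term per kind, where each line had 2 or more arrays with a value. It was tested on simulated data. A dye term per kind absorbs the centring. The 329 overexpression and 173 knockdown probes whose percent ratio equalled the most frequent set, within 1 percentage point on at least 5 arrays, were taken to hold no information, and no member was among them.

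Members, lists and tests were chosen with earlier results of these data known. Named genes were all member probes, up to 10 called probes of each list by size, the 3 nearest probes to each of 3 member probes, and Sirt1. Alternatives covered the dye term, the turn, scaling, filters, robust fits, a replicate block and each array left out.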

Additional observations from a re-analysis of the deposited data

Results flagged for a closer look

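Ep300 was singled out in both kinds because every array of one line lay on one side of 0 and every array of the other line on the opposite side. The share of all probes with that pattern was not counted. Arrays of the lines did not overlap for 12.6% of all probes between the overexpressing lines and 14.8% between the knockdown lines. Sir2OE1 minus Sir2OE2 was 0.357 ± 0.140 on the log2 scale (95% interval 0.05 to 0.67; limma adjusted p = 0.558), with 3 of 3 arrays plus in Sir2OE1 and 4 of 4 minus in Sir2OE2. Sir2KD1 minus Sir2KD2 was 0.194 ± 0.140 (95% interval -0.12 to 0.50; limma adjusted p = 0.653), with 3 of 3 arrays plus in Sir2KD1 and 4 of 4 minus in Sir2KD2. Neither difference passed the test.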

How the results depend on the processing

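Foxo1 was the only member called, and the number of member probes called in Sir2KD1 was 1 as reported. With no turn by channel, a setting that also left out the dye term, that count was 0. It was also 0 with arrays scaled to the same median absolute deviation and 0 with slide number as a replicate block. It was 3 with robust lmFit, which called 21% of all probes in Sir2KD1 (4870 of 23230), against 3.59% in the reported fit. The Foxo1 ratio in Sir2KD1 was 0.26 with no turn (adjusted p = 1.00), -0.53 with the scaling (adjusted p = 0.0866) and -0.71 with the replicate block (adjusted p = 0.111). Leaving out 1 array gave -0.73 to -0.46, with adjusted p from 0.0393 to 0.154 and a count of 0 to 1. The call was lost without slides 1 to 3 of Sir2OE2, any slide of Sir2KD1 or any slide of Sir2KD2. Robust lmFit also called 1 member probe in Sir2OE1, 1 in Sir2KD2, 2 for overexpressing minus knockdown lines, 2 for Sir2OE1 minus Sir2OE2 and 2 for Sir2KD1 minus Sir2KD2. Over all probes it called 10.8%, 17.1%, 19.2%, 7.65% and 14.4% in the same order. In Sir2OE1 these were 2518 of 23230 probes, against 247 in the reported fit.

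Further substrates called numbered 1, and 2 with a single dye term, 3 with no dye term, 0 with no turn, 16 with robust lmFit and 0 to 3 with an array left out. Probes of proteins that bind or control Sirt1 numbered 1, and 0 with no turn, 0 with the scaling, 4 with robust lmFit and 0 to 1 with an array left out. Regulators and partners numbered 5, and 13 with no dye term, 0 with no turn, 3 with the scaling, 2 with the block, 29 with robust lmFit and 2 to 5 with an array left out (2 without slide 1, 2 or 3 of Sir2OE2). Targets numbered 13, and 21 with no dye term, 0 with no turn, 6 with the block, 46 with robust lmFit and 7 to 10 with an array left out (7 without slide 1 of Sir2OE2). Robust lmFit called from 10.8% (Sir2OE1) to 21% (Sir2KD1) of all probes in a line, against 1.06% and 3.59% there in the reported fit. With no turn, the ratios in Sir2KD1 were 0.50 for Hic2, -0.39 for Nfkb2, 0.0549 for Cited1, -0.17 for Relb, 0.88 for Rbl2, -0.15 for Ldha, -0.24 for Ccng1, 0.24 for Sod2 and 0.0923 for Sesn2. In Sir2OE2 they were -0.0766 for Max, 0.0922 for Ucp1, 0.0119 for Plk2 and -0.11 for Gadd45a, and in Sir2KD2 -0.0818 for Ucp1. The setting with no turn also left out the dye term. For each of these ratios all turned arrays of the line lay on one side, so leaving out the dye term alone would not reverse it. With neither the turn nor the dye term, 0 probes of 23230 were called in Sir2OE1, Sir2OE2 and Sir2KD2 and 15 in Sir2KD1. The cause of the other changes was not tested.

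Slide numbers did not pair the arrays: residuals of arrays of different lines with the same number had a mean r of -0.0659 over 19 pairs, against 0.0234 over 54 pairs with other numbers. With the line as the replicate, 0 probes were called for overexpressing minus knockdown lines (1822 at an unadjusted p under 0.05). With the knockdown ratios turned, 1160 were called for that difference, against 617 in the reported fit. Of the log2 ratios of member probes under the alternatives, counts of calls left out, 1815 stayed on their side of the threshold. Those called in neither fit also stayed within their spread. A further 31 moved beyond it, 12 lost and 11 gained a call, and 1 with a call turned its sign. Sign changes of ratios called in neither fit were not counted as turned. For example, Foxo3 probe 8335 ran from -0.47 to 0.41 for overexpressing minus knockdown lines with an array left out.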

Other observations

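Some probes ran closely alongside the member probes with the largest variance over the 14 arrays, searched among 16608 probes with 1 symbol. These correlations describe 14 arrays of 4 lines that share control RNA, and carry no test. Ppargc1a ran most closely with Fhit (r = 0.908), 4930471M09Rik (r = 0.898) and Dnajb14 (r = 0.895). Foxo3 probe 8335 ran with Cxcl2 (r = 0.891), Enpp3 (r = 0.886) and Stx19 (r = 0.883), whereas Foxo3 probe 19682 ran with Spryd4 (r = 0.885), Ddx20 (r = 0.883) and Ptger1 (r = 0.865). The nearest probes of these Foxo3 probes had no gene in common.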
